A study of Mus musculus with 2 samples.

Results

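Wnt proteins are lipid-modified signals that bind Frizzled receptors together with the co-receptors Lrp5 and Lrp6. In the canonical branch this contact stops the destruction complex from degrading beta-catenin, and in other branches it acts on cell polarity, the cytoskeleton and calcium. Secreted antagonists (Sfrp, Dickkopf and Wif1 proteins) hold the signal back, while R-spondins, bound to Lgr4, Lgr5 or Lgr6, keep Frizzled receptors at the surface and strengthen it. In the forebrain the pathway is known for patterning before birth, and in the adult brain for synapse assembly and for the blood-brain barrier.

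The genes described here are the protein-coding genes whose symbols are those of the Wnt ligands, Frizzled receptors, Lrp5 and Lrp6, Sfrp1 to Sfrp5, Dkk1 to Dkk4 and Dkkl1, Wif1, the R-spondins and Lgr4 to Lgr6. They number 48 of 43346 annotated genes and of 21474 protein-coding genes in the deposited tables. The rule that picks them uses symbols and no measured value, though earlier results of these data were known when it was chosen. They comprise 19 Wnt ligands, 10 Frizzled receptors, 2 co-receptors, 4 secreted Frizzled-related antagonists, 5 Dickkopf proteins, 1 Wnt inhibitory factor, 4 R-spondins and 3 R-spondin receptors. Polyadenylated RNA from frontal cortex of adult C57BL/6J mice aged 8 weeks was sequenced in 2 biological replicates, with no treatment, engineered allele or second condition. The labels describe mixed-sex littermates pooled from males and females, and do not say how many animals entered a pool. With 1 group there is no contrast and no test, so levels, their order and the difference between the libraries are given, and spreads are those of these 2 samples.

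Expected counts (fragments assigned to a gene by a model) summed to 106084891 in replicate 1 and 90476207 in replicate 2. The libraries stand apart in sex-linked genes: Xist, the RNA that silences an X chromosome, had 0.25 TPM in the first library and 110.35 TPM in the second, and the Y-linked Eif2s3y was at 53.78 and 0.05 TPM. These values go against a pool of both sexes in each library, so sex and library cannot be told apart in any difference between the replicates. TPM, the unit of these levels, is a gene's share of all transcripts after adjustment for length. Cortical markers were present, with Camk2a at 707 TPM and Slc17a7 at 424 TPM on average. Markers of neighbouring regions were present as well: olfactory bulb Doc2g averaged 155 TPM and striatal Penk 109 TPM. These are the highest on their lists, which range down to Shisa3 at 10.3 TPM and Drd2 at 3.18 TPM. On either list 5 of 5 markers were at or above 1 TPM in both libraries, against 60.7% of protein-coding genes. The levels below are those of the dissected tissue as a whole.

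Of the 48 genes, 32 reached 1 TPM in both libraries, against 60.7% of protein-coding genes. The threshold was met by 9 of 19 Wnt ligands, 8 of 10 Frizzled receptors, 2 of 5 Dickkopf proteins, 3 of 4 R-spondins, and every Sfrp, Lrp and Lgr gene and Wif1. Their median level was 2.48 TPM over the 48 genes, beside 4.10 TPM over protein-coding genes. None was among the 1000 most abundant protein-coding genes, and Dkk3, the highest, ranked 2108. In bulk tissue, a low level from few cells and a low level in many cells cannot be told apart.

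**Figure D1:**
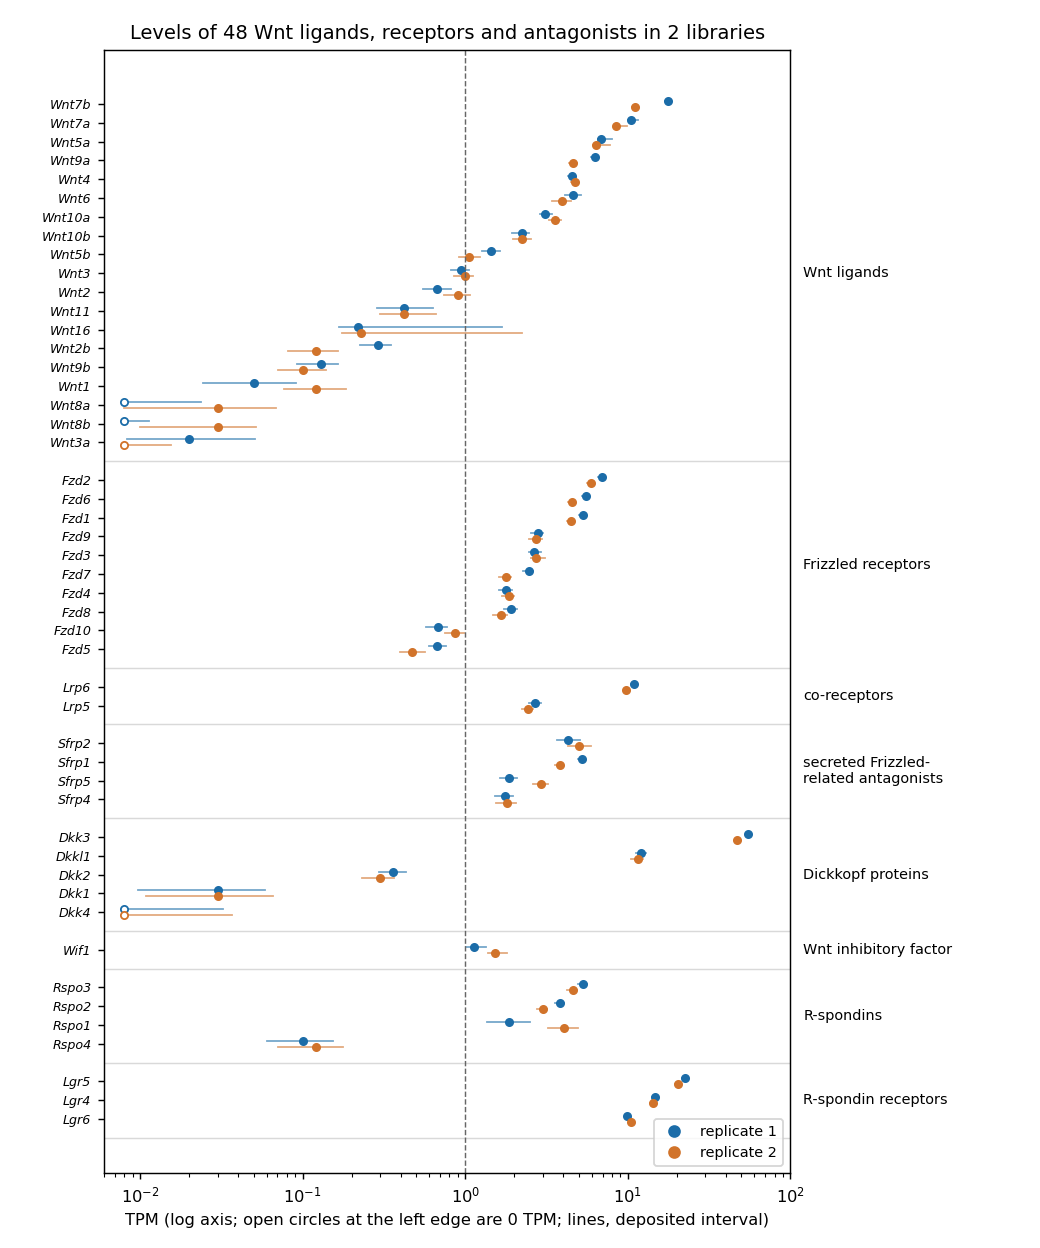
TPM of the 48 genes in each library on a log axis, grouped by role. Points are single libraries, lines are the deposited interval of each value, open circles at the left edge are 0 TPM and the dashed line marks 1 TPM. Dkk3 lies to the right of all others, and the Wnt ligands range from Wnt7b at 14.3 TPM on average down to Wnt3a at 0.01 TPM.

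The summed level of the 48 genes was 231 ± 17.6 TPM (SD, n = 2). Dickkopf proteins took 27.3% of it, Wnt ligands 23.4% and Frizzled receptors 12.5%, and R-spondin receptors took 19.3% and 20.6% in the 2 libraries. Sfrp antagonists took 5.79%, Lrp5 and Lrp6 together 5.57%, R-spondins 4.96% and Wif1 0.581%. The share of Dickkopf proteins was mostly that of 1 gene, since Dkk3 made up 81.5% and 79.9% of it in replicates 1 and 2. The Wnt ligands were at 59.78 and 49.0 TPM in sum, above the Frizzled receptors at 30.63 and 27.04 TPM.

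**Figure D2:**
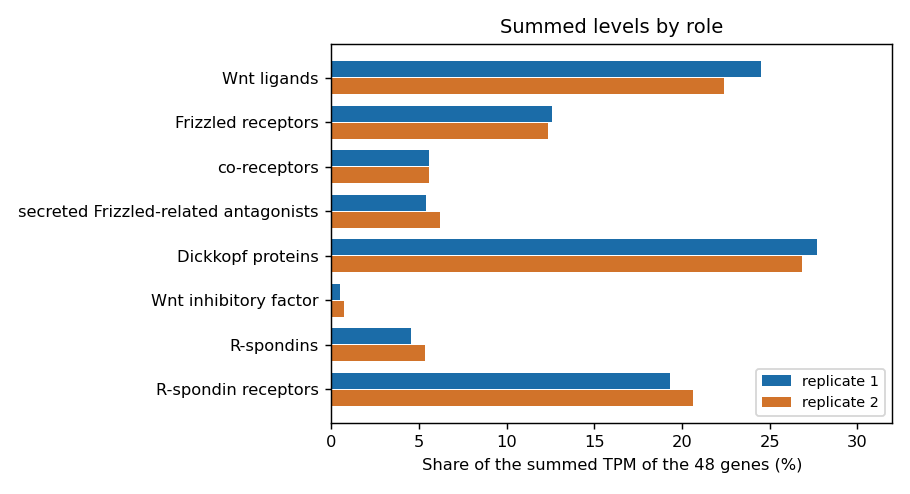
Share of the summed TPM of the 48 genes taken by each role, in percent, with 1 bar per library. Dickkopf proteins, Wnt ligands and R-spondin receptors are the 3 longest bars in both libraries.

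Wnt7b and Wnt7a led the ligands. Both are known as signals from neural cells to brain endothelium, read there through Reck and Adgra2, and Wnt7b also as a signal for dendrite growth. Wnt7b (ENSMUSG00000022382.10, mm10 chromosome 15, 85535437 to 85582473, minus strand) was at 17.56 TPM in the first library and 11.06 TPM in the second. Wnt7a was at 10.41 and 8.49 TPM, so Wnt7b was above it in both libraries, by 0.57 ± 0.26 on the log2 TPM scale. Wnt5a, the best known ligand of the branches without beta-catenin, followed at 6.88 and 6.37 TPM. Its close relative Wnt5b was at 1.44 and 1.05 TPM, lower than Wnt5a by 4.78-fold and 6.07-fold in TPM.

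The next ligands lay within a narrow band. Wnt9a was at 6.29 and 4.63 TPM, Wnt4 at 4.52 and 4.75 TPM, and Wnt6 at 4.62 and 3.91 TPM. Wnt4 and Wnt6 changed places between the libraries, and neither can be placed above the other. Wnt10a was at 3.10 and 3.55 TPM and Wnt10b at 2.22 and 2.25 TPM. Wnt10a was above Wnt10b in both libraries by 0.57 ± 0.12 on the log2 TPM scale, with deposited intervals apart.

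The ligands under 1 TPM were Wnt3, Wnt2, Wnt11, Wnt16, Wnt2b, Wnt9b, Wnt1, Wnt8a, Wnt8b and Wnt3a, with means from 0.965 TPM (Wnt3) down to 0.01 TPM (Wnt3a). These include the classical beta-catenin ligands Wnt1 and Wnt3a and the embryonic forebrain ligand Wnt8b. Wnt3a had 5 counts in replicate 1 and 0 in replicate 2, at 0.02 and 0 TPM. Wnt8b had 0 and 6 counts and Wnt8a 0 and 3. At this depth none of the 3 can be told from absent in the library with 0 counts, where the deposited intervals reach up to 0.0155 TPM for Wnt3a, 0.0113 TPM for Wnt8b and 0.0236 TPM for Wnt8a. Wnt1 had 9 and 20 counts, or 0.05 and 0.12 TPM.

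Adjacent Wnt genes form 4 pairs in the genome, within 100 kb and with no other protein-coding gene between them, and the partners differed in level to different degrees. On chromosome 1, Wnt6 and Wnt10a lie on the same strand with a gap of 6.19 kb, at 4.27 and 3.33 TPM on average. The order of this pair was not called, because the deposited intervals overlapped in replicate 2. The other pairs are divergent, transcribed away from each other: Wnt3a and Wnt9a 16.2 kb apart on chromosome 11, Wnt9b and Wnt3 24.3 kb apart on the same chromosome, and Wnt10b and Wnt1 11.7 kb apart on chromosome 15. In each divergent pair 1 gene was well above the other in both libraries. Wnt9a was above Wnt3a by 266-fold in replicate 1, on 5 counts of Wnt3a and taken as counts per effective length because TPM is deposited to 2 decimals, and by at least 295-fold in replicate 2, where Wnt3a had 0 counts and a floor of 3 counts was used for that library. Wnt3 was above Wnt9b by 2.97 ± 0.30, and Wnt10b above Wnt1 by 4.67 ± 0.78, both on the log2 TPM scale.

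The bases before the start sites of the divergent pairs with the largest ratios, Wnt9a with Wnt3a and Wnt10b with Wnt1, are shown to set their CpG content beside their levels. They are the 250 bases upstream of the start in RefSeq (GRCm38.p6), 5′ to 3′ on the gene's strand, and capitals mark each CG, the dinucleotide at which DNA methylation is placed. Wnt9a comes from chr11:59306680-59306929 (plus strand), Wnt3a from chr11:59290752-59291001 (minus strand), Wnt10b from chr15:98778151-98778400 (minus strand) and Wnt1 from chr15:98789607-98789856 (plus strand).
Wnt9a: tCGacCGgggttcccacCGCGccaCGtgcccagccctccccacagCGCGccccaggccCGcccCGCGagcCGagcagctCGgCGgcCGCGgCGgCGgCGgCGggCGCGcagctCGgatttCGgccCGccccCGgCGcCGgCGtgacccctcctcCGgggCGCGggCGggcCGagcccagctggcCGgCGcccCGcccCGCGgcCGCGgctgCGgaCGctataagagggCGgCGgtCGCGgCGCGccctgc
Wnt3a: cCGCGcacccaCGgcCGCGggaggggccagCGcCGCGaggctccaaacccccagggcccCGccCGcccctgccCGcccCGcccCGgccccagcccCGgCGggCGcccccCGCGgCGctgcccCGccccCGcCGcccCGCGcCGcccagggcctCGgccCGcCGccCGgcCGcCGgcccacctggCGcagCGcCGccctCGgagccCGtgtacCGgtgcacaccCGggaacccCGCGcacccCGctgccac
Wnt10b: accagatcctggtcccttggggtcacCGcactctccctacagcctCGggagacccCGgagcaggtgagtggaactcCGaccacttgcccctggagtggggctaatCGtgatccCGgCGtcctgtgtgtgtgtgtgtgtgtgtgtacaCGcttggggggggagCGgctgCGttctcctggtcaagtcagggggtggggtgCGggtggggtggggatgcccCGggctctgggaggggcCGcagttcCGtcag
Wnt1: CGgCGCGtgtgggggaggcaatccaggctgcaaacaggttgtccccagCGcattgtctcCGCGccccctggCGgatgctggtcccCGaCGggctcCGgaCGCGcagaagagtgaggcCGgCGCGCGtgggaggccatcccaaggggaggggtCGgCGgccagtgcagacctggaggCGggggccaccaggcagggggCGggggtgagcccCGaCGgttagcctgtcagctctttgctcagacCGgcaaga
Wnt9a held 48 CG in these bases and Wnt3a 41, at mean levels of 5.46 and 0.01 TPM, so the higher gene had more. Wnt10b held 14 and Wnt1 23, at mean levels of 2.24 and 0.085 TPM, so the lower gene of this pair had more. The direction thus differed between these pairs, which were picked for their ratios, and a relation of CG number to level was not tested. In the third divergent pair, Wnt3 held 24 CG and Wnt9b 29 in promoter windows that also take in the first 50 bases after the start.

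RefSeq promoter entries, from 250 bases before to 50 after a start, were matched for 31 of the 48 genes, giving 34 entries. No entry was used for Dkk3, Dkk4, Fzd2, Fzd3, Fzd6, Fzd8, Lgr5, Lrp5, Lrp6, Rspo2, Rspo3, Sfrp1, Sfrp4, Wnt10a, Wnt5a, Wnt7b and Wnt8a. Entries with at least 55% G and C and at least 0.65 of the CG count expected from base content, on either strand alike, made up 24 of the 34 (70.6%), against 38.0% of protein-coding entries and 28.1% of all 32851 entries. Among entries of genes at 1 TPM or more, 13 of 19 were CpG-rich by this rule, and among those of genes under 1 TPM, 11 of 15. The median CG count was 24 in the first set and 27 in the second. These are values over entries and not over genes. Wnt5b and Wnt11 gave several entries each, and the Wnt5b entries with 4 and 7 CG, in the first set, were not CpG-rich. The small difference between the sets is therefore not one between genes.

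Among the Frizzled receptors, Fzd2, Fzd6 and Fzd1 were highest. Fzd2 was at 6.90 and 5.96 TPM, Fzd6, known for hair and tissue polarity, at 5.54 and 4.55 TPM, and Fzd1 at 5.27 and 4.47 TPM. Fzd1, Fzd2 and Fzd7 form 1 branch of the receptor family by sequence, and within it Fzd2 was above Fzd1 by 0.40 ± 0.02 and above Fzd7 by 1.62 ± 0.18 on the log2 TPM scale. Fzd7 itself was at 2.45 and 1.77 TPM. Fzd9 was at 2.79 and 2.72 TPM, and Fzd3, a receptor for axon tract formation, at 2.64 and 2.72 TPM. Fzd4, the receptor for Norrin on brain and retinal vessels, was at 1.78 and 1.85 TPM, and Fzd8 at 1.91 and 1.66 TPM. Fzd10 (0.775 TPM on average) and Fzd5, the lowest receptor at 0.67 and 0.47 TPM, stayed under 1 TPM in both libraries. Fzd5 was below its closest relative Fzd8 by 1.65 ± 0.21 on the log2 TPM scale.

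Receptor levels rest on the transcript models in use. The leading transcripts of 3 Frizzled genes were much shorter in the annotation of the deposited tables (release M4) than in the later GENCODE release M21: 4157 against 12734 nt for Fzd3, 3685 against 6720 nt for Fzd4 and 3346 against 5974 nt for Fzd8. The leading transcript also differed by more than 10% in length for Rspo3 (2394 against 3085 nt) and Dkkl1 (903 against 1149 nt), and was identical in length for 34 of the 48 genes. What the longer models would do to these TPM values was not tested.

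Lrp6, the co-receptor that binds Wnt and the Dickkopf proteins, was at 10.88 and 9.80 TPM. Lrp5, its relative, was at 2.70 and 2.42 TPM. Lrp6 was 4.03-fold above Lrp5 in replicate 1 and 4.05-fold in replicate 2, so the ratio differed between the libraries by less than any other called pair. By expected counts Lrp6 ranked 2 among the 48 genes, whereas it ranked 6 by TPM, which divides by its long transcript.

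The R-spondin receptors were high as a group. Lgr5, a target gene of the pathway and known as a stem cell marker in gut, was the second most abundant of the 48 genes (ENSMUSG00000020140.11, chromosome 10, 115450311 to 115587780, minus strand). It was at 22.52 and 20.33 TPM, on 7057 and 6072 counts. Lgr4 was at 14.64 and 14.34 TPM and Lgr6 at 9.91 and 10.47 TPM. The order Lgr5, Lgr4, Lgr6 held in both libraries with deposited intervals apart, with Lgr5 above Lgr4 by 0.56 ± 0.08 and Lgr4 above Lgr6 by 0.51 ± 0.08 on the log2 TPM scale. Of the ligands for these receptors, Rspo3 was at 5.31 and 4.57 TPM, Rspo2 at 3.84 and 2.99 TPM, and Rspo1 at 1.87 and 4.06 TPM. Rspo4, known for nail formation, was at 0.10 and 0.12 TPM. Rspo3 was above Rspo2 in both libraries, but Rspo1 was below Rspo2 in replicate 1 and above it in replicate 2, with deposited intervals apart each time. The coding transcript Rspo1-201 alone, at 0.94 and 2.22 TPM, was below Rspo2 in both libraries.

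Dkk3, a secreted relative of the Dickkopf proteins that is not known to block Lrp5 and Lrp6 as Dkk1 does, was the most abundant of the 48 genes (ENSMUSG00000030772.5, chromosome 7, 112116017 to 112159057, minus strand). It was at 55.02 and 46.91 TPM, on 14337 and 11050 counts, and none of the others reached its level in either library. Dkkl1, a related gene best known from testis, was at 12.11 and 11.50 TPM. Dkkl1 ranked 5 by TPM but 20 by counts (697 and 592), its transcript being 903 nt long. The Lrp-binding Dickkopf genes were low: Dkk2 was at 0.36 and 0.30 TPM, Dkk1 at 0.03 TPM in both libraries on 5 counts each, and Dkk4 had 0 counts in both. Dkk3 was 2021- and 1556-fold above Dkk1 in counts per effective length, and at least 1664- and 1276-fold above Dkk4 when 3 counts per library stand for its 0.

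The Sfrp antagonists, which carry a Frizzled-like domain that binds Wnt proteins, all reached 1 TPM in both libraries. Sfrp2 was at 4.26 and 5.03 TPM, Sfrp1 at 5.23 and 3.82 TPM, Sfrp5 at 1.86 and 2.93 TPM, and Sfrp4 at 1.76 and 1.81 TPM. Sfrp1 was the higher of Sfrp1 and Sfrp2 in replicate 1 and the lower in replicate 2, so this order was not called. The coding transcript Sfrp2-201 alone, at 2.82 and 2.73 TPM, was below Sfrp1 in both libraries. Sfrp1 was above Sfrp4 by 1.32 ± 0.35 on the log2 TPM scale. Wif1, which binds Wnt proteins in the extracellular space, was at 1.14 and 1.52 TPM. Frzb, the family member that the Sfrp symbols leave out, was at 22.79 and 22.29 TPM, above each of them in both libraries.

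Neighbours in the order of levels were mostly not separable. Of 47 adjacent steps in the ranking of the 48 genes, 5 held in both libraries with deposited intervals apart: Dkk3 above Lgr5, Lgr5 above Lgr4, Wnt7a above Wnt5a, Fzd2 above Wnt9a, and Wnt6 above Rspo2. The last of these steps depends on a Wnt6 transcript that is not annotated as coding. The coding transcript Wnt6-201 alone, at 2.74 and 2.65 TPM, was below Rspo2 (3.84 and 2.99 TPM) in both libraries. Of 33 gene pairs taken from shared ancestry or position, 29 had a called order, meaning the same sign in both libraries, a mean log2 ratio beyond its SD and deposited intervals apart in both. Of the 29 pairs without a gene at 3 counts or fewer in a library, 26 were called. The pairs not called were Wnt8b and Wnt8a, Wnt6 and Wnt10a, Sfrp1 and Sfrp2, and Rspo1 and Rspo2.

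**Figure D3:**
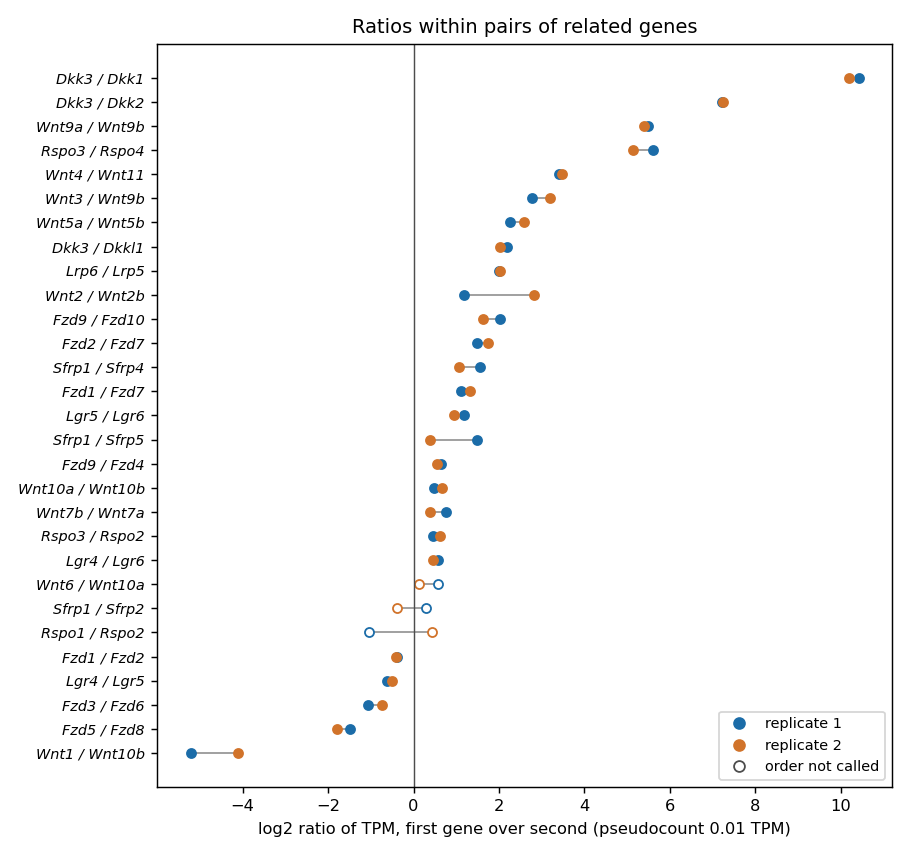
Log2 ratio of TPM within pairs of related or neighbouring genes (pseudocount 0.01 TPM), for the 29 pairs without a gene at 3 counts or fewer, with 1 point per library. Filled points are pairs whose order was called and open points the others. Dkk3 over Dkk1 lies at the top near 10.3, and Rspo1 over Rspo2 is on opposite sides of 0 in the 2 libraries.

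Between the libraries, most of the genes that averaged at least 1 TPM differed by less than 0.5 on the log2 scale. The measure is log2 of replicate 2 over replicate 1 in CPM (counts scaled to the library total) after scaling by TMM factors, given for the 32 genes that averaged at least 1 TPM. Of these, 3 were higher in replicate 2 by 0.5 or more, against 2.38% of all annotated genes tested, and 1 was lower by as much, against 2.79%. Both directions together hold 4 of the 32, against 5.16%. The median over the 32 genes was 0.05, beside 0.00 over all genes. The median absolute value was 0.17, beside 0.10, but the 2 sets were not matched for level. The spread depends on level: among all genes averaging at least 5 TPM, 1.34% were higher by 0.5 or more, against the 2.38% above. Whether the 32 genes differed more than other genes of like level was not tested. On the scale of deposited TPM the median of all genes is shifted by −0.12, so TPM values quoted above read slightly lower in replicate 2 for most genes.

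Rspo1 (ENSMUSG00000028871.7, chromosome 4, 124986430 to 125009099, plus strand) had the largest difference. It had 145 counts in replicate 1 and 301 in replicate 2, which is 1.32 on the log2 scale (95% counting interval from 1.04 to 1.63). Sfrp5 had 261 and 370 counts, a ratio of 0.78 (0.55 to 1.02), and Wif1 had 197 and 237 counts, a ratio of 0.54 (0.27 to 0.83). In the other direction, Wnt7b had 4680 and 2663 counts and a ratio of −0.53 (−0.60 to −0.46). These intervals cover counting error only and hold no spread between animals or libraries. Reads amplified by PCR without molecular identifiers do not stand for independent molecules, so the counting error itself may be larger. Next in size were Fzd7 at −0.33, Wnt10a at 0.33, Sfrp1 at −0.32 and Wnt9a at −0.30, none of which reached 0.5. Lrp6 differed least, at −0.00 (−0.05 to 0.05) on 7796 and 6408 counts.

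Cell type markers moved between the same libraries, some lists more than others. Counts of genes that were higher or lower are by the TMM-scaled ratio, over genes averaging at least 1 TPM, while sums are in deposited TPM, so the 2 can point in different directions. Of all annotated genes tested, 49.6% were higher in replicate 2, and several lists lie near that share. Higher by 0.5 or more were 4 of 5 striatal, 1 of 2 ependymal and 1 of 6 GABAergic markers, against 2.38% of all genes. Lower by as much were 2 of 7 meningeal fibroblast, 2 of 6 mural cell and 2 of 5 microglial markers, against 2.79%. No marker averaging at least 1 TPM in the other lists reached 0.5. Striatal markers, from Penk at the top to Drd2 at the bottom of the range, were higher in replicate 2 for 5 of 5 genes and summed to 170 and 215 TPM. Ependymal markers, from Rarres2 to Tmem212, were higher for 2 of 2 and summed to 6.57 and 10.7 TPM over 4 genes, with Tmem212 at 0 TPM in replicate 1. Meningeal fibroblast markers, from Igf2 to Lum, were lower for 6 of 7 genes, at 82.4 and 60.3 TPM in sum. Mural cell markers, from Vtn to Abcc9, were lower for 6 of 6, at 180 and 140 TPM, and microglial markers, from C1qb to Tmem119, for 5 of 5, at 161 and 112 TPM. Choroid plexus markers, from Aqp1 to Kcne2, were low throughout, at 12.7 and 9.97 TPM in sum over 6 genes. The 1 gene averaging at least 1 TPM, Aqp1, was lower in replicate 2, and Ttr was at 0.93 and 0.85 TPM.

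In the other lists, by the same ratio, genes were higher in replicate 2 for 4 of 6 excitatory neuron markers (led by Camk2a), 5 of 6 GABAergic neuron markers (Gad1 to Pvalb), 4 of 6 astrocyte markers (Slc1a3 to Aldh1l1) and 5 of 5 oligodendrocyte markers (Mbp to Mog). Their deposited TPM summed to 1281 and 1245, to 960 and 1181, to 500.3 and 439, and to 1802 and 2221 in that order. Genes were higher for 1 of 4 oligodendrocyte precursor markers (Gpr17 to Cspg4), 2 of 5 endothelial markers (Ly6c1 to Pecam1), 3 of 4 immature neuron markers (Tubb3 to Sox11) and 4 of 5 olfactory bulb markers (Doc2g to Shisa3). Their deposited TPM summed to 45.7 and 39.2, to 238 and 246, to 390.4 and 382, and to 308 and 306. Genes were higher for 2 of 2 proliferation markers (Top2a to Mki67 on a list of 4), 1 of 3 hippocampal markers (Wfs1 to Spink8 on a list of 4) and 0 of 4 thalamic markers (Prkcd to Tcf7l2). Their deposited TPM summed to 3.16 and 3.62, to 36.4 and 38.3, and to 20.8 and 17.9. The part of these cells in the differences of Rspo1, Sfrp5, Wif1 and Wnt7b was not tested.

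**Figure D4:**
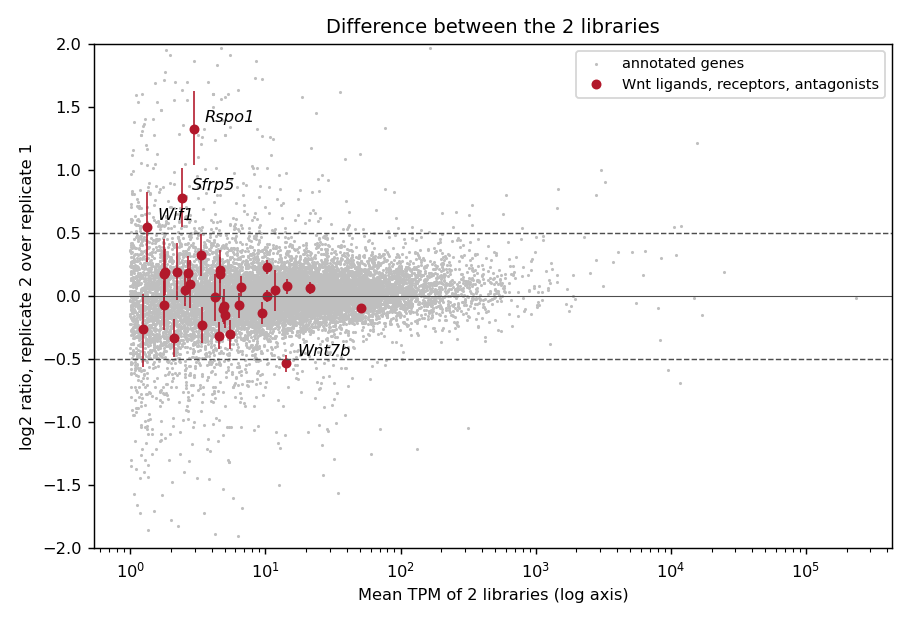
Log2 ratio of replicate 2 over replicate 1 (CPM, TMM-scaled) against mean TPM on a log axis, for annotated genes averaging at least 1 TPM (grey) and the 32 Wnt pathway genes among them (red, with 95% counting intervals). Dashed lines mark 0.5 in either direction, 41 genes lie outside the plotted range, and Rspo1, Sfrp5, Wif1 and Wnt7b are the 4 labelled red points beyond the dashed lines.

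Several of the genes overlap other annotated genes. Another gene overlaps 14 of the 48, 3 of them on the same strand (Wnt2b, Fzd3 and Rspo3). The labels describe stranded libraries, but the strand setting of the counting is not given in the sources used here. The antisense gene AU022754 at Wnt7b was at 1.45 and 0.88 TPM. Gm12930, which runs antisense over the start of Rspo1, was at 0.05 and 0.38 TPM. Fbxl14 lies within Wnt5b on the other strand and, at 16.01 and 16.61 TPM, was above Wnt5b in both libraries. These overlaps are of whole gene spans, introns included, and overlap of exons was not tested. Without strand in the counting, only reads from exons shared by a gene and its antisense partner could not be told apart. The deposited posterior SD of the count was 0 for each of the 48 genes in both libraries, so the authors' model left no spread in how many reads it gave to each gene.

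Transcript use was compared for the 18 genes that averaged 1 TPM or more and have 2 or more annotated transcripts. The same transcript led in both libraries for 16 of them, and it took more than 90% of the gene's TPM in both for 7 (Fzd3, Lgr6, Lrp6, Wif1, Wnt10a, Wnt7a and Wnt9a). The exceptions were Wnt5a, led by Wnt5a-201 in replicate 1 and Wnt5a-202 in replicate 2, and Wnt5b, led by Wnt5b-203 and then Wnt5b-204. Wnt7b was split between 2 coding transcripts in both libraries. Wnt7b-201 took 49.96% and 51.7% of its TPM, and Wnt7b-202 took 46.9% and 45.6%, so the lower level of Wnt7b in replicate 2 was shared by both transcripts.

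Transcripts that are not annotated as coding took at least 10% of the gene's TPM in both libraries for 6 genes. Their share was 49.5% and 45.4% for Rspo1, 33.7% and 45.7% for Sfrp2, and 40.7% and 32.3% for Wnt6. For Rspo1 this was a single transcript of 446 nt. The coding transcript Rspo1-201 was at 0.94 and 2.22 TPM and the short Rspo1-202 at 0.92 and 1.85 TPM, so both were higher in replicate 2. Rspo1-202 rested on 18.23 and 31.8 expected counts, few for a short transcript, and its share is correspondingly uncertain. For Lgr5 the share was 28.6% and 22.5%, all from retained introns, for Lrp5 20.97% and 15.9%, and for Wnt5a 20.04% and 11.89%. The coding transcript Lgr5-201 alone was at 15.33 and 14.94 TPM, which still placed it above the whole of Lgr4 in both libraries.

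**Figure D5:**
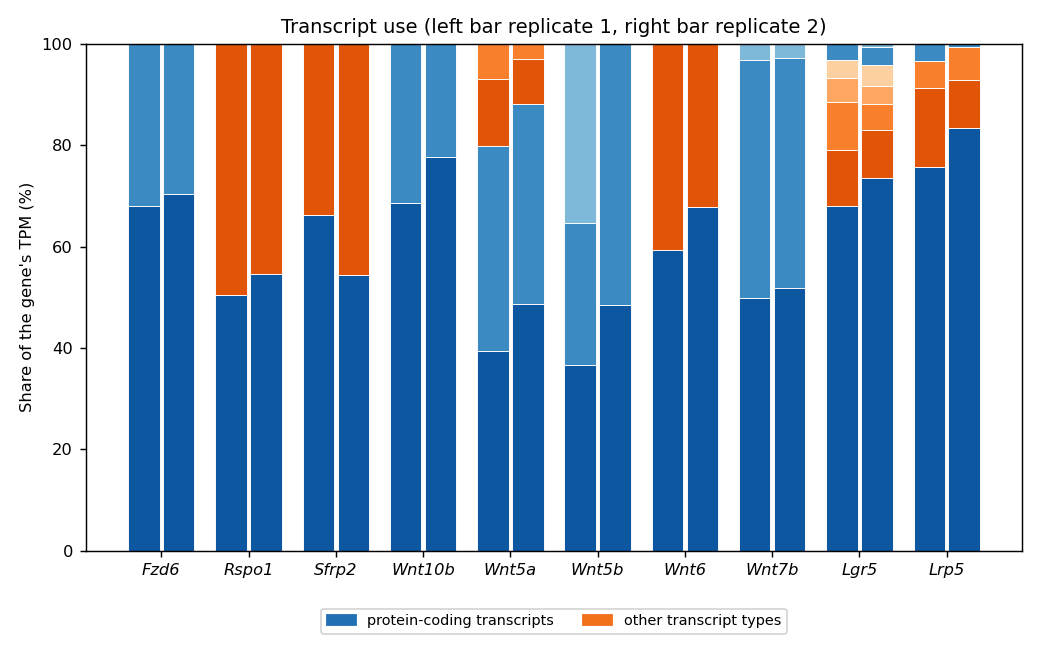
Percent of the TPM of a gene contributed by its single transcripts, for 10 genes with more than 1 transcript in use, with replicate 1 on the left and replicate 2 on the right. Blue segments are protein-coding transcripts and orange segments other types, and Rspo1, Sfrp2 and Wnt6 show the largest orange share.

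The rest of the pathway was more uniformly detected than its ligands and receptors. Of 84 further pathway genes, 74 (88.1%) reached 1 TPM in both libraries, with a median level of 10.9 TPM, against 60.7% and 4.10 TPM for protein-coding genes. Genes for the secretion and lipid modification of Wnt proteins were detected 6 of 6, with Porcn, which attaches the lipid, at 59.28 and 55.11 TPM and Tmed2 at 54.26 and 52.37 TPM. The destruction complex was detected 11 of 11, led by Gsk3a at 119.44 and 115.20 TPM and Csnk1a1 at 82.77 and 80.87 TPM. Beta-catenin and its nuclear partners were detected 15 of 15, led by Ctnnb1, beta-catenin itself, at 98.89 and 99.48 TPM and the co-repressor Tle2 at 70.50 and 59.07 TPM. Dishevelled proteins with kinases and other factors at the receptor were detected 10 of 10, led by Csnk1g2 at 105.08 and 109.40 TPM and Csnk1e at 96.07 and 94.48 TPM.

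In most of the other lists, detection was less complete. Other extracellular modulators were detected 10 of 15, led by Igfbp4 at 33.36 and 42.60 TPM and Apcdd1 at 34.65 and 27.33 TPM. Alternative Wnt receptors were detected 2 of 4, with Ryk at 19.09 and 19.03 TPM and Ptk7 at 3.02 and 2.39 TPM. Ror1 and Ror2, receptors for Wnt5a, were under 1 TPM. Of the ubiquitin ligases that R-spondins counteract, Znrf3 was at 4.25 and 3.33 TPM and Rnf43 at 0.70 and 0.84 TPM. Both genes of the Norrin list, Tspan12 at 10.35 and 10.44 TPM and Ndp at 9.56 and 8.29 TPM, were above Fzd4. Fzd4, the receptor for Norrin, was at 1.78 and 1.85 TPM on its shorter transcript model. Feedback and target genes were detected 10 of 12, with Tnfrsf19 at 23.33 and 20.61 TPM and the widely used target Axin2 at 13.72 and 12.02 TPM. That list holds Lgr5, 1 of the 48 genes, and Lef1, Znrf3, Rnf43, Notum and Apcdd1, which other lists also hold. The 84 further genes leave out Lgr5 and count each gene once. Planar cell polarity genes were detected 12 of 13, led by Celsr3 at 53.67 and 44.34 TPM and Celsr2 at 32.90 and 31.34 TPM. Of the 74 detected genes none was higher in replicate 2 by 0.5 or more and 1 was lower, the kinase gene Csnk1g3 at 19.11 and 6.15 TPM (log2 ratio −1.50). The median ratio of the 74 genes was −0.02.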

How the data were processed

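The authors deposited, per library, gene and transcript tables on mm10 with annotation M4, per the deposited text description; aligner, quantification program and strand setting were not given in the sources used here. Deposited values used were expected counts, TPM, FPKM, the percent of a gene's TPM per transcript, posterior means and SDs, and interval bounds, which are deposited signal values in TPM whose level is not stated. Libraries held 106084891 and 90476207 counts, of which spike-ins took 3.50% and 3.47%. Symbols, biotypes and coordinates came from GENCODE M21, matched for 42462 genes. Replicate ratios used rounded expected counts without spike-ins, a prior count of 2 and TMM (edgeR 4.0.16, R 4.3.3), whose factors were 1.02 and 0.982. Genes averaging at least 1 TPM entered them. Counting intervals are exact conditional binomial intervals at 95%. Ratios between genes used TPM plus 0.01. The ratio script was tested on simulated data. No p-values were computed, and SDs from 2 libraries have 1 degree of freedom.

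The genes, lists, pairs and thresholds were chosen with earlier results of these data known. Each of the 48 genes is named, with both libraries' values where its mean is at least 1 TPM and for the highest and lowest gene of each role. From each pathway list the 2 highest genes and any beyond 0.5 are named, and from each marker list the highest and lowest gene, except 1 that is not reported here. Frzb, Axin2, Ror1, Ror2, Rnf43, Slc17a7 and Ttr were named in addition, after their values were seen. Marker lists also covered GABAergic neurons, astrocytes, oligodendrocytes and their precursors, endothelium, immature neurons, proliferation, hippocampus and thalamus. Alternatives covered thresholds, posterior means, FPKM, rescaled TPM, DESeq2 1.42.0 size factors, library size, spike-ins, pseudocounts, prior counts, counts not divided by length, and each library alone.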

Additional observations from a re-analysis of the deposited data

How the results depend on the processing

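With 1 group and 2 libraries, no value separates biological from technical spread, and genes under 1 TPM rest on few counts. The number of genes at 1 TPM or more was 35 at 0.5 TPM, 24 at 2 TPM, 30 by FPKM, 32 by posterior means, 35 on rescaled TPM and 32 in either library alone. Rescaling TPM to nuclear protein-coding genes multiplied levels by 1.98 and 2.08 and brought the summed level to 469 TPM, while each library alone gave 219 to 244 TPM. Called pair orders numbered 31 in either library alone. Counts not divided by length reversed Wnt6 over Wnt10a (−0.29), Fzd9 over Fzd4 (−0.14) and Sfrp1 over Sfrp2 (1.71) on the log2 scale, and Rspo1 over Rspo2 was −1.03 without replicate 2 and 0.44 without replicate 1. On deposited TPM the median replicate ratio was −0.12 and 1 gene was higher beyond 0.5 (Rspo1), beside −0.12 and 1.32% over all genes. By library size alone 2 were (1.97% of all genes), since Wif1 was at 0.49. With no filter 7 of 48 were higher and 3 lower, against 13.0% and 10.5% of 24912 genes, and at a mean of 5 TPM or more 0 of 12 were higher (1.34% of all genes), because Rspo1, Sfrp5 and Wif1 lie under that level. At 5 TPM or more, the same transcript led in both libraries for 8 of 9 genes and exceeded 90% for 4, because fewer genes entered. It exceeded 90% for 7 genes in either library alone. Replicate ratios need both libraries. Pathway genes detected were 77 at 0.5 TPM and 72 at 2 TPM, alternatives chosen after seeing the data. No paired analysis was possible because the series has 1 group.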

Other observations

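For Wnt16, the deposited estimates of the same library disagreed. Its TPM was 0.22 in replicate 1 and 0.23 in replicate 2, while the posterior mean TPM was 0.72 and 0.91 and the deposited interval ran from 0.168 to 1.69 TPM and from 0.175 to 2.23 TPM. Wnt16 has 4 annotated coding transcripts here, among them Wnt16-204 of 229 nt, which had 0 counts in both libraries. By posterior means, however, Wnt16-204 took 66.5% of the gene's TPM in replicate 1 and 72.2% in replicate 2. The gene rested on 26 and 23 counts. Its deposited TPM and posterior mean lay on the same side of 1 TPM in both libraries. The deposited TPM lay below its own interval in 4 genes, each at 0 counts in at least 1 library: Wnt8a, Wnt8b, Wnt3a and Dkk4.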
